A study of Bos taurus with 7 samples.

Results

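The genes described here are 32 components of Notch signaling, chosen by name: 5 ligands, 4 receptors, 3 fringe enzymes, 4 genes of the proteases that cut the receptor, 4 genes of the nuclear complex, 6 target genes, and 6 genes of the deltex and numb families. All 32 were found among the 23704 genes to which the transcripts of the deposited tables could be matched. RNA was sequenced from whole preantral follicles of cattle, in 4 libraries from the primary stage (PF) and 3 from the secondary stage (SF). In PF the oocyte is enclosed by a single layer of cuboidal granulosa cells, and in SF, here the early and smaller ones, by a few layers. The follicles of both groups came from the ovarian cortex of young Holstein Friesian dairy cows with no genetic change, were freed mechanically, sorted by sieve size and shape, and rested briefly in medium with insulin, transferrin, selenite and FSH before lysis. Each library was made from a pool of whole follicles, so fewer cells of a type and less RNA per cell cannot be told apart.

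In the Notch pathway, a ligand of the Jagged or Delta-like family on the surface of a cell binds a Notch receptor on its neighbour. The receptor is then cut, first outside the membrane by an ADAM protease and then within it by gamma-secretase, and its released inner part joins RBPJ and a Mastermind protein in the nucleus to switch on genes of the HES and HEY families. In the mouse ovary the pathway is known for signaling from the oocyte, which makes JAG1, to granulosa cells, which carry NOTCH2, during the formation and early growth of follicles.

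The libraries held 18788105 to 23764615 estimated counts. PF replicate 4, which the study removed, is listed throughout but left out of means and tests, so n = 3 libraries per group. Its stromal fibroblast markers summed to 6201 TPM (a transcript abundance that takes length into account), while PF replicates 1 to 3 had 423 to 611 TPM and SF 219 to 527. Most of the sum in PF replicates 1 to 3 was *DCN*, at 390 to 573 TPM, which was lower in PF replicate 4, at 168. The smooth muscle and pericyte markers (1062 TPM) and the theca markers (1171 TPM) also had their highest sums in PF replicate 4. The 14 oocyte markers summed to 2401 to 4563 TPM in PF replicates 1 to 3, to 439 in PF replicate 4 and to 219 to 1723 in SF, and 11 of them were lower in SF. The 14 granulosa markers summed to 1136 to 1583 TPM in PF and 2886 to 3881 in SF, and 9 of the 13 tested were higher. Each library's name holds a number whose meaning the labels do not give. It is below 40 in 3 libraries, PF replicates 1 and 2 with SF replicate 1, and over 40 in the remaining 4.

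Comparing SF with PF asks which Notch components differ in level as the follicle gains layers. In SF the receptor *NOTCH2*, the gamma-secretase subunit *NCSTN*, the Mastermind coactivators *MAML1* and *MAML3* and the ubiquitin ligase gene *DTX3* were higher, while the ligands *JAG1* and *JAG2*, the target *HES5* and the ligase gene *DTX2* were lower. These 9 are 29.0% of the 31 members with an adjusted p (DESeq2 Wald test, adjusted p below 0.05), against 19.1% of all 15056 genes tested. The 5 that rose stand against 8.14% of all genes that were higher, and the 4 that fell against 11% that were lower. The median log2 fold change was 0.14 over the members and 0.02 over all genes tested. The members were named with earlier results of these data known, so no test was made of the list.

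The calls depended on the tool and the libraries. The quasi-likelihood test of edgeR passed 0 members after adjustment, as it passed 0 genes of the whole table. At an unadjusted p below 0.05 it passed 12 members, against 26.9% of all genes. With PF replicate 4 kept, DESeq2 passed 3 members, *JAG1*, *MAML3* and *DTX3*, against 5.82% of all genes. Leaving out any of the other 6 libraries in turn left *JAG1*, *JAG2*, *MAML1*, *DTX2* and *DTX3* past the threshold each time. The number of members passing was 5 without PF replicate 2 or SF replicate 2, 6 without SF replicate 3, and 15 without PF replicate 3. PF replicate 3 is the only tested PF library numbered above 40, while SF replicates 2 and 3 are both above 40. Every fit without PF replicate 3 therefore partly mixes stage with library number. The count over all genes moved in the same direction, from 2876 to 1887, 2009, 2338 and 3947 without PF replicate 2, SF replicate 2, SF replicate 3 and PF replicate 3.

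**Figure D1:**
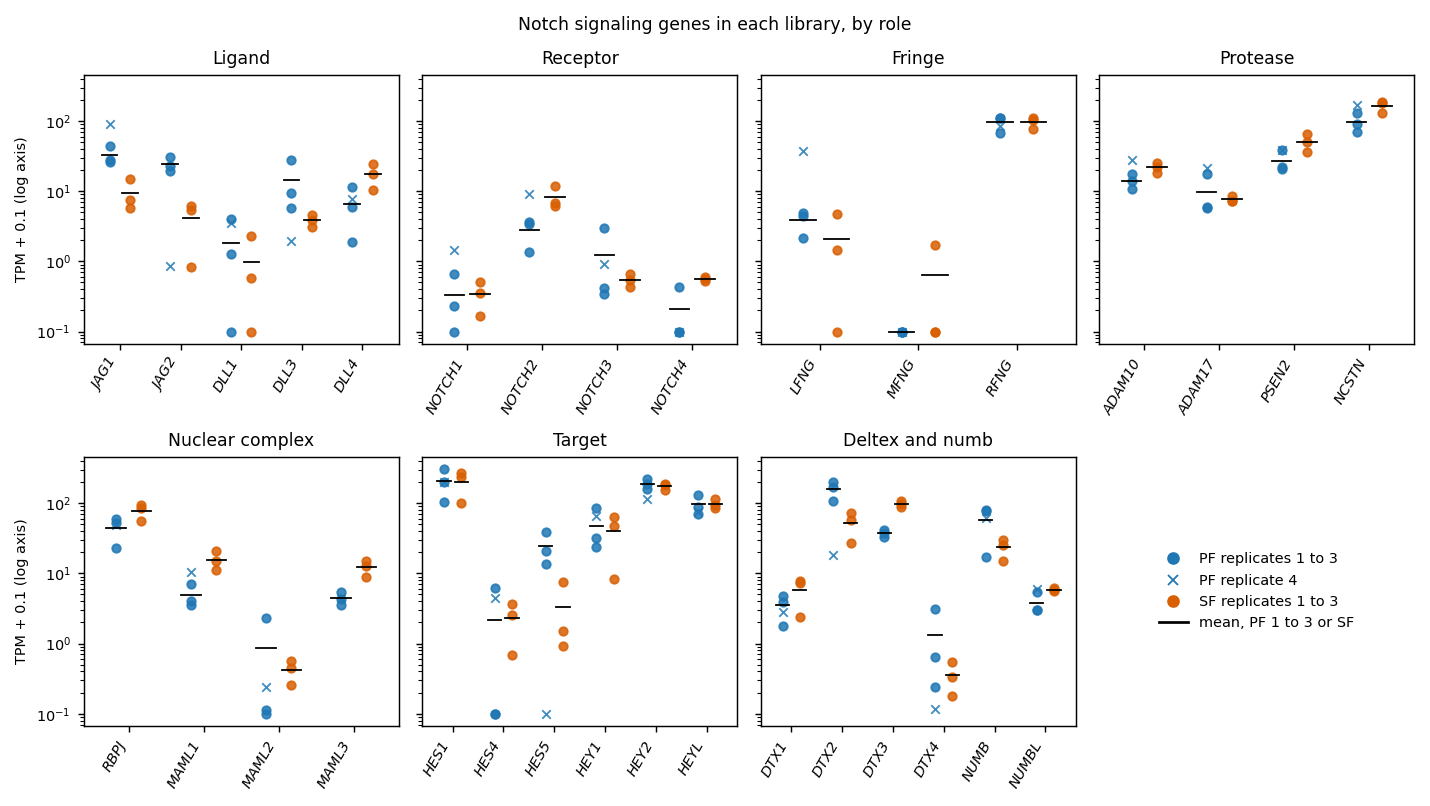
TPM + 0.1 on a log axis for the 32 Notch genes in each of 7 libraries, by role, with PF in blue (replicate 4 as a cross), SF in orange and a line at the mean of PF replicates 1 to 3 or of SF. *JAG1* and *JAG2* lie lower in SF and *NOTCH2*, *MAML1*, *MAML3* and *DTX3* higher, with no overlap of the tested libraries, while *HES1*, *HEY2*, *HEYL* and *RFNG* overlap at high levels.

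Among the ligands, the Jagged genes were lower in SF. *JAG1*, the Jagged ligand with the higher mean level, was at 27.8, 43.4 and 26.4 TPM in PF replicates 1 to 3 and at 7.42, 14.7 and 5.62 TPM in SF replicates 1 to 3. The groups did not overlap, and PF replicate 4 was highest of all, at 89.95 TPM. The log2 fold change of SF over PF was -1.75 ± 0.43 (SE; DESeq2 adjusted p = 0.0012), and with PF replicate 4 kept the DESeq2 adjusted p was 0.0051. *JAG2*, the second Jagged ligand, was at 30.2, 22.5 and 19.6 TPM in PF and at 6.02, 5.32 and 0.720 TPM in SF, a log2 fold change of -2.51 ± 0.69 (DESeq2 adjusted p = 0.0036). Here PF replicate 4, at 0.768 TPM, lay with the SF libraries, and the call ended when it was kept (DESeq2 adjusted p = 0.20). The 2 Jagged genes thus stood at opposite ends of the PF group in replicate 4, the PF library with the lowest oocyte and highest stromal markers. Within SF both Jagged genes were lowest in replicate 3, the SF library with the lowest oocyte marker sum (219 TPM). The part of oocyte and stromal cells in the difference between stages was not tested.

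The Delta-like ligands did not pass. *DLL4*, a ligand best known from blood vessels, was at 1.79, 5.94 and 11.5 TPM in PF and at 10.2, 17.4 and 24.3 TPM in SF, with PF replicate 4 at 7.77. SF replicate 1 lay below PF replicate 3, so the groups overlapped, and the log2 fold change was 1.46 ± 0.77 (DESeq2 adjusted p = 0.17). Without PF replicate 3 the DESeq2 adjusted p was 0.0084, but with the library number (below or above 40) as a term in the fit it was 0.2. The 11 endothelial markers summed to 117 to 191 TPM in PF replicates 1 to 3 and 27.9 to 138 in SF, with *PECAM1*, *CDH5*, *KDR* and *ERG* under 1 TPM in all 6 libraries. Most of the sum was *FLT1*, at 81.8 to 142 TPM in PF replicates 1 to 3 and 6.65 to 44.1 in SF, where it was lower (DESeq2 adjusted p = 0.0084), and *CLDN5*, at 17.9 to 38.3 TPM in PF and 19.2 to 91.7 in SF (DESeq2 adjusted p = 0.29). Their part in the level of *DLL4* was not tested. *DLL3*, a divergent family member, was at 9.28, 27.7 and 5.67 TPM in PF and at 4.52, 3.01 and 3.85 in SF, and at 1.84 TPM in PF replicate 4. PF replicates 1 to 3 were all above SF, but PF replicate 2 stood far above the other 2, and the log2 fold change of -1.75 ± 0.69 did not pass (DESeq2 adjusted p = 0.055, and 0.016 without PF replicate 3). *DLL1* ranged from 0 to 3.98 TPM in PF and from 0 to 2.19 in SF, with a log2 fold change of -0.87 ± 2.13 (DESeq2 adjusted p = 0.83), and its sign turned without PF replicate 3 (1.00).

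Because the Jagged genes were lower and *DLL4* was not, the make-up of the ligand RNA differed between stages. The 5 ligands summed to 69.1, 101 and 67.1 TPM in PF replicates 1 to 3 (mean 79.0 ± 18.9 SD), to 104 in PF replicate 4, and to 28.2, 40.9 and 36.6 TPM in SF (35.2 ± 6.46 SD). The groups did not overlap. *DLL4* made up 2.59%, 5.90% and 17.1% of the ligand TPM in PF replicates 1 to 3, 7.48% in PF replicate 4, and 36.3%, 42.5% and 66.2% in SF. These shares do not depend on how the libraries were scaled, and every SF library was above every PF library. The TPM of *JAG1* and *JAG2* together was 32.5, 11.1, 4.01 and 11.7 times that of *DLL4* in PF replicates 1 to 4, and 1.31, 1.15 and 0.261 times in SF. The mean log2 of this ratio differed by -3.94 between SF and PF, by -3.96 with PF replicate 4 kept, by -3.85 within library numbers below 40 and by -2.87 above 40. The ratio was chosen after the values were seen and was not tested. *JAG1* alone was the largest part of the ligand TPM in PF replicates 2 to 4, and *DLL4* was in SF.

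**Figure D2:**
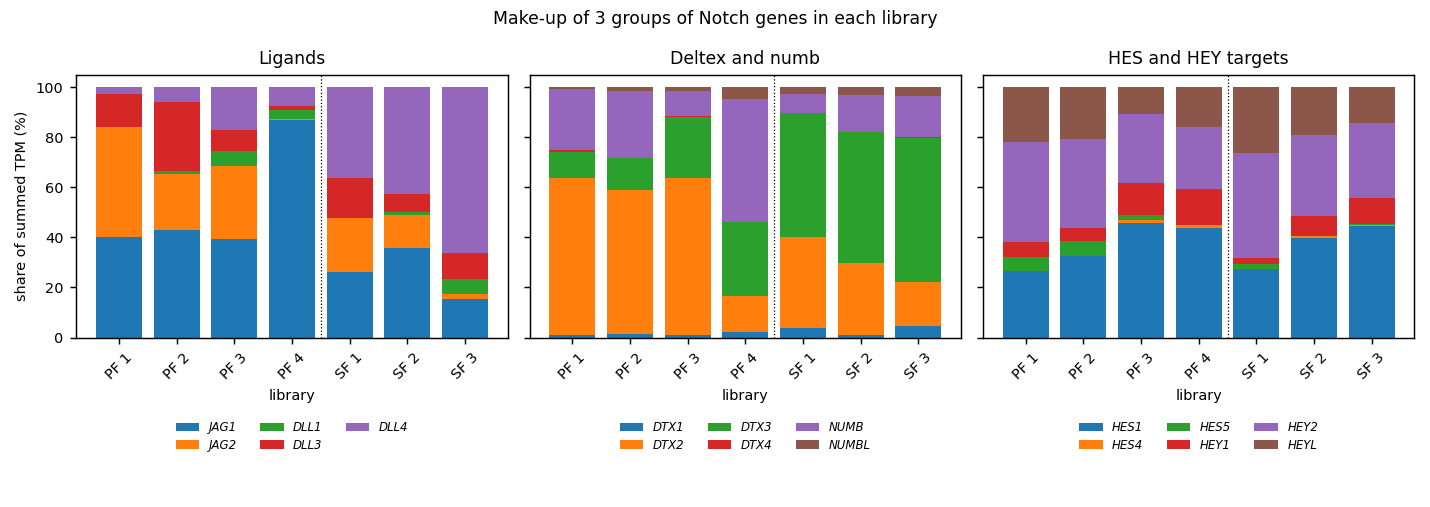
Share of summed TPM, in percent, held by each gene among the 5 ligands, the 6 deltex and numb genes and the 6 targets in each of 7 libraries (stacked bars, with a dotted line between PF and SF). *DLL4* holds 36.3% to 66.2% of the ligand TPM in SF and 2.59% to 17.1% in PF, *DTX3* holds 49.5% to 57.6% of the deltex and numb TPM in SF and 10.4% to 29.4% in PF, and among the targets *HES5* holds 1.99% to 6.15% in PF replicates 1 to 3 and 0.135% to 2.03% in SF.

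Receptor RNA was low beside that of the ligands, and most of it came from *NOTCH2* in all tested libraries but PF replicate 2. This receptor was at 3.28, 1.25 and 3.60 TPM in PF replicates 1 to 3 and at 5.95, 6.75 and 11.9 TPM in SF, with no overlap. The log2 fold change was 1.71 ± 0.58 (DESeq2 adjusted p = 0.023). PF replicate 4 was at 8.88 TPM, within the SF range, and keeping it ended the call (DESeq2 adjusted p = 0.48). It was lost as well when PF replicate 1 (DESeq2 adjusted p = 0.081), PF replicate 2 (0.085), SF replicate 2 (0.052) or SF replicate 3 (0.15) was dropped. *NOTCH2* held 85.1% to 89.7% of the receptor TPM in SF, 83.5% and 90.7% in PF replicates 1 and 3, and 26.5% in PF replicate 2.

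In PF replicate 2 the receptor with the highest level was *NOTCH3*, which is known from vascular smooth muscle. It was at 0.314, 2.90 and 0.240 TPM in PF replicates 1 to 3, 0.827 in PF replicate 4, and 0.327, 0.558 and 0.441 in SF. PF replicate 2 stood above all others, and DESeq2 set no adjusted p for this gene because of that single count. The fitted log2 fold change was -1.25 ± 1.06, and 0.75 without PF replicate 2. The 10 smooth muscle and pericyte markers summed to 162, 156 and 72.8 TPM in PF replicates 1 to 3, of which *MYH11* made up 86.0, 73.0 and 48.1. *ACTA2*, at 39.4 TPM, *TAGLN*, at 10.1, and *DES*, at 15.9, were highest in PF replicate 2 among these 3 libraries. *MYH11*, *CNN1*, *MCAM* and *CSPG4* were highest in PF replicate 1 among them. SF replicate 1, with *NOTCH3* at 0.327 TPM, had *ACTA2* at 50.9 TPM and *TAGLN* at 19.1. PF replicate 4, with *NOTCH3* at 0.827 TPM, had a sum of 1062 TPM for these markers. *PDGFRB* and *KCNJ8* were under 1 TPM in all 6 libraries. The part of such cells in the level of *NOTCH3* was not tested.

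*NOTCH1*, the receptor of many epithelia, reached 1 TPM in none of the 6 tested libraries, with a highest value of 0.558 TPM in PF replicate 2 and 1.34 TPM in PF replicate 4 (log2 fold change 0.17 ± 1.72, DESeq2 adjusted p = 0.96). *NOTCH4*, the endothelial receptor, was also under 1 TPM in all 6, at 0.456, 0.430 and 0.506 TPM in SF, at 0.332 in PF replicate 1, and at 0 in PF replicates 2 to 4. Its groups did not overlap, but its log2 fold change of 2.37 ± 2.00 rested on 32.5 estimated counts in PF and 40.6 to 51.7 per SF library (DESeq2 adjusted p = 0.44, and 0.0010 without PF replicate 1, which left PF at 0). A count of 0 allows up to 3 counts in a library. The 4 receptors summed to 3.92, 4.71 and 3.96 TPM in PF replicates 1 to 3 (4.20 ± 0.441 SD) and to 6.998, 7.81 and 13.3 TPM in SF (9.36 ± 3.41 SD). The groups did not overlap, while PF replicate 4, at 11.05 TPM, lay inside the SF range. Ligand and receptor RNA therefore stood in opposite order between the stages in PF replicates 1 to 3 and SF.

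The fringe genes encode sugar transferases that change which ligands a Notch receptor answers to. *RFNG* carried 93.4% to 98.7% of the fringe TPM in the 6 tested libraries. It was at 110.1, 109 and 68.0 TPM in PF, 84.9 in PF replicate 4, and 112, 102 and 77.5 TPM in SF. The groups overlapped over nearly their whole range, with a log2 fold change of 0.14 ± 0.27 (DESeq2 adjusted p = 0.77). *LFNG* was between 2.09 and 4.83 TPM in PF replicates 1 to 3 and between 0 and 4.66 in SF (a log2 fold change of -0.75 ± 1.51, DESeq2 adjusted p = 0.78), but reached 36.7 TPM in PF replicate 4, the library with the high stromal markers. *MFNG* was at 0 in all 4 PF libraries and in SF replicates 2 and 3, and at 1.61 TPM, or 52.9 estimated counts, in SF replicate 1, so no fold change is given.

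Of the proteases, the gamma-secretase subunit nicastrin was higher in SF. Its gene *NCSTN* was at 129.6, 89.7 and 70.2 TPM in PF replicates 1 to 3, at 168 in PF replicate 4, and at 188, 179 and 129 TPM in SF. SF replicate 3 lay just below PF replicate 1, so the TPM of the groups overlapped, while the log2 fold change of 0.92 ± 0.28 passed (DESeq2 adjusted p = 0.0097). The call ended without PF replicate 2 (DESeq2 adjusted p = 0.088) or SF replicate 2 (0.069), and with PF replicate 4 kept (0.46). *PSEN2*, a catalytic subunit of gamma-secretase, was at 20.6 to 38.9 TPM in PF replicates 1 to 3 and 35.7 to 66.2 in SF (a log2 fold change of 0.97 ± 0.50, DESeq2 adjusted p = 0.16, and 0.0048 without PF replicate 3). With the library number as a term in the fit the DESeq2 adjusted p of *PSEN2* was 0.21. *ADAM10*, the main protease of ligand-bound Notch, was at 10.7 to 17.2 TPM in PF and 18.3 to 25.0 in SF. Its groups did not overlap, but its log2 fold change of 0.77 ± 0.35 did not pass (DESeq2 adjusted p = 0.10). *ADAM17*, a related protease, was at 5.74 to 17.6 TPM in PF and 7.23 to 8.44 in SF (a log2 fold change of -0.18 ± 0.52, DESeq2 adjusted p = 0.86, and 0.40 for the log2 fold change without PF replicate 1). Together these 4 genes summed to 147 ± 33.9 TPM in PF and 245 ± 35.3 TPM in SF (SD), without overlap among the 6 libraries, and PF replicate 4, at 255 TPM, lay in the SF range.

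In the nuclear complex, 2 of the 3 Mastermind genes, whose proteins recruit coactivators to the receptor's inner part, were higher in SF. *MAML1* was at 3.93, 7.04 and 3.49 TPM in PF and at 11.1, 14.7 and 21.1 TPM in SF, with PF replicate 4 at 10.2. All SF libraries were above all PF libraries, and the log2 fold change was 1.83 ± 0.47 (DESeq2 adjusted p = 0.0018, or 0.12 once PF replicate 4 was kept). *MAML3* was at 3.45, 4.27 and 5.28 TPM in PF and at 8.89, 12.5 and 15.02 TPM in SF. PF replicate 4, at 4.29 TPM, sat inside the PF range, and the log2 fold change was 1.51 ± 0.46 (DESeq2 adjusted p = 0.010, or 0.020 once PF replicate 4 was kept). The call for *MAML3* was lost when PF replicate 1 (DESeq2 adjusted p = 0.061), PF replicate 2 (0.057), SF replicate 2 (0.055) or SF replicate 3 (0.064) was dropped.

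*MAML2* was under 1 TPM in every library except PF replicate 3, at 2.24 TPM (log2 fold change -1.35 ± 1.99, DESeq2 adjusted p = 0.69). Without that library the sign turned and the difference passed (log2 fold change 5.97, DESeq2 adjusted p = 0.019), from at most 1.0 estimated count in the other tested PF libraries. *RBPJ*, which binds the DNA, was the most abundant gene of the complex, at 51.9, 22.6 and 59.5 TPM in PF, 48.7 in PF replicate 4, and 55.1, 93.4 and 86.7 TPM in SF. SF replicate 1 lay below PF replicate 3, and the log2 fold change of 0.78 ± 0.50 did not pass (DESeq2 adjusted p = 0.28). The 4 genes summed to 54.6 ± 18.8 TPM in PF and 106.5 ± 26.8 TPM in SF (SD), without overlap, and PF replicate 4, at 63.4 TPM, lay within the PF range.

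Of the 6 target genes, which encode repressors switched on by the nuclear complex, 1 was lower in SF and 5 did not pass, a share of 16.7% near the 19.1% of all genes. *HES1* had the highest mean level, though *HEY2* was above it in PF replicates 1 and 2 and SF replicate 1. *HES1* was at 105, 202 and 308 TPM in PF, 202 in PF replicate 4, and 99.0, 236 and 272 TPM in SF. The lowest library of each group was its replicate 1, and the groups overlapped over almost all of their range (log2 fold change 0.04 ± 0.60, DESeq2 adjusted p = 0.98). *HEY2*, which has a role in vessels and heart, was at 157, 221 and 187 TPM in PF and 153, 189.8 and 183 in SF (a log2 fold change of -0.03 ± 0.31, DESeq2 adjusted p = 0.96), with PF replicate 4 lowest at 113. *HEYL* was at 71.2 to 129.7 TPM in PF and 86.2 to 114 in SF (a log2 fold change of 0.15 ± 0.30, DESeq2 adjusted p = 0.79).

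*HEY1* sorted by library number, and within each range of numbers every SF library lay below every PF library. It was at 23.8 and 31.9 TPM in PF replicates 1 and 2 and 8.26 in SF replicate 1, the libraries numbered below 40, and at 85.4, 66.2, 47.1 and 64.3 TPM in PF replicates 3 and 4 and SF replicates 2 and 3, numbered above 40. The stages overlapped (log2 fold change -0.20 ± 0.85, DESeq2 adjusted p = 0.91). On the log2(TPM + 1) scale SF minus PF was -1.62 below 40 and -0.62 above 40, without PF replicate 4. With the library number as a term in the fit the log2 fold change was -1.12 (DESeq2 adjusted p = 0.062). *HES4* sorted by library number too. It was at 0 in PF replicates 1 and 2 and 0.577 TPM in SF replicate 1 against 2.42 to 6.12 TPM in the other 4 libraries (log2 fold change -0.01 ± 3.08, DESeq2 adjusted p = 1.0). Without PF replicate 3 the PF group of *HES4* held no counts and the difference passed (DESeq2 adjusted p = 1.3e-06).

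*HES5*, a target best known from neural progenitors, was the member of this group that fell. It was at 20.9, 38.3 and 13.4 TPM in PF replicates 1 to 3 and at 7.38, 1.42 and 0.821 TPM in SF, and at 0 in PF replicate 4. PF replicates 1 to 3 were above all SF libraries, and the log2 fold change was -2.79 ± 0.89 (DESeq2 adjusted p = 0.015). Dropping PF replicate 2 (DESeq2 adjusted p = 0.13), SF replicate 2 (0.089) or SF replicate 3 (0.054) ended the call, as did keeping PF replicate 4 (0.37), and without SF replicate 1 the log2 fold change was -4.34. Across the 7 libraries *HES5* was lowest in PF replicate 4 and SF replicate 3, those with the lowest oocyte marker sums (439 and 219 TPM). The part of oocyte RNA in its difference was not tested. The 6 targets summed to 562 ± 148 TPM in PF and 522 ± 137 TPM in SF (SD), overlapping.

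The deltex genes encode ubiquitin ligases of a family known for acting on Notch in the cell, though not each member need do so. Of the 4, 2 moved in opposite directions. *DTX3* was at 33.1, 37.7 and 41.6 TPM in PF replicates 1 to 3, 36.8 in PF replicate 4, and 98.7, 106 and 89.1 TPM in SF. The spread within each stage was small, PF replicate 4 lay among the other PF libraries, and the log2 fold change was 1.46 ± 0.30 (DESeq2 adjusted p = 5.5e-05, or 3.0e-05 once PF replicate 4 was kept). It was the lowest adjusted p of the members by DESeq2 and by edgeR (0.052). *DTX2* was at 199, 172 and 107 TPM in PF and at 71.8, 58.4 and 27.3 TPM in SF, a log2 fold change of -1.49 ± 0.41 (DESeq2 adjusted p = 0.0038). PF replicates 1 to 3 were all above SF, but PF replicate 4 was the lowest library of all, at 18.0 TPM, and keeping it ended the call (DESeq2 adjusted p = 0.37). Within PF and within SF, *DTX2* was lowest in the library with the lowest oocyte marker sum, PF replicate 4 (439 TPM) and SF replicate 3 (219 TPM). The part of oocyte RNA in its difference was not tested.

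As a share of the deltex and numb TPM, *DTX2* made up 62.4%, 57.4% and 62.6% in PF replicates 1 to 3 and 36.1%, 28.8% and 17.6% in SF, while *DTX3* made up 10.4%, 12.6% and 24.4% in PF and 49.5%, 52.2% and 57.6% in SF. Their order was thus turned over between the stages in all 6 tested libraries, and *DTX3* was also above *DTX2* in PF replicate 4 (29.4% and 14.4%). *DTX1* was at 1.68 to 4.73 TPM in PF and 2.29 to 7.72 in SF (a log2 fold change of 0.91 ± 0.67, DESeq2 adjusted p = 0.36), and *DTX4* was at 0.138 to 3.04 TPM in PF and 0.0780 to 0.443 in SF (a log2 fold change of -2.12 ± 1.25, DESeq2 adjusted p = 0.23).

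The numb genes encode adaptors that remove Notch from the cell surface. *NUMB* was at 76.96, 79.5 and 16.9 TPM in PF, 61.7 in PF replicate 4, and 15.01, 29.9 and 25.5 TPM in SF. PF replicate 3 lay among the SF libraries, and the log2 fold change of -1.13 ± 0.58 did not pass (DESeq2 adjusted p = 0.16, and 0.0026 without PF replicate 3). With the library number as a term in the fit the DESeq2 adjusted p of *NUMB* was 0.42. Within library numbers below 40, SF minus PF on the log2(TPM + 1) scale was -2.31 for *NUMB*, and above 40, without PF replicate 4, it was 0.67. *NUMBL* was at 2.89 to 5.24 TPM in PF replicates 1 to 3 and 5.51 to 6.14 in SF, without overlap (log2 fold change 0.75 ± 0.45, DESeq2 adjusted p = 0.24).

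**Figure D3:**
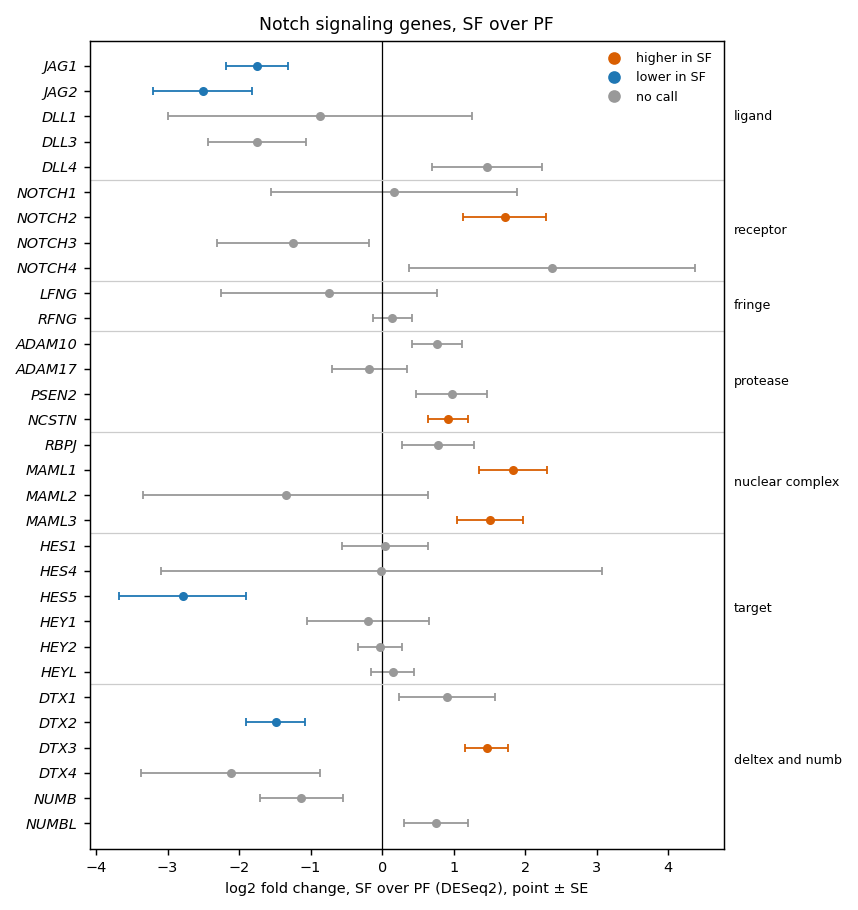
Log2 fold change of SF over PF with its SE, from DESeq2 on 3 libraries per group, for the Notch genes with any count in PF replicates 1 to 3, by role (*MFNG* is not drawn). Orange marks the 5 genes higher in SF and blue the 4 lower, and the longest bars belong to genes at 0 in some libraries, such as *HES4* and *DLL1*.

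Across the members, 21 were at 1 TPM or more in all 6 tested libraries and 2, *NOTCH1* and *NOTCH4*, were under 1 TPM in all 6. The TPM of the groups did not overlap for 12 of the 31 members with an adjusted p, against 32.7% of all genes tested, and 8 of these 12 were calls. Within library numbers below 40, where SF has 1 library, and above 40, where PF has 1 library once replicate 4 is left out, the differences of the 9 called genes on the log2(TPM + 1) scale had the sign of the fold change, with no test and no spread in the arm of 1 library. With the library number as a term in the fit all 9 passed, with DESeq2 adjusted p from 5.6e-05 for *DTX3* to 0.036 for *NOTCH2*. By transcript, *JAG1*, *MAML1* and *HES5* had a single model in the tables, and the leading model carried 84.3% to 99.7% of *NCSTN*, 78.9% to 87.9% of *DTX3* and 63.7% to 73.5% of *DTX2*. In *JAG2* the longer of 2 models carried from 0% to 100% of the TPM, so its reads were not assigned to the same model in every library.

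The rest of the pathway gives the setting of these genes. Of 71 further components listed by role, 69 were matched and 62 received an adjusted p. Of these, 6 were higher in SF, 6 were lower and 50 did not pass, so that 19.4% passed, near the 19.1% of all genes. With PF replicate 4 kept 2 passed, *LNX1* and *MFAP2*, against 5.82% of all genes. After adjustment edgeR passed 0 of them, as of all genes. At an unadjusted p below 0.05 it passed 17, against 26.9% of all genes. Without a library the count ranged from 5 (PF replicate 2) to 19 (PF replicate 3), and it was 6 without PF replicate 1 or SF replicate 2. The count over all genes was also lowest without PF replicate 2 and highest without PF replicate 3.

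The largest difference was in receptor turnover. *LNX1*, a ubiquitin ligase that acts on Numb, was at 38.6, 26.9 and 31.4 TPM in PF replicates 1 to 3 and at 0.758, 0 and 0.0285 TPM in the SF libraries (log2 fold change -6.92 ± 1.17, DESeq2 adjusted p = 5.2e-07). The SF counts lay almost all in replicate 1, with 33.1 estimated counts against 0 and 1.1, and without it the fitted log2 fold change was -11.19. PF replicate 4, at 1.14 TPM, was close to SF, yet *LNX1* still passed with it (DESeq2 adjusted p = 3.5e-04). *NEDD4L*, a ubiquitin ligase of membrane proteins, was at 99.4, 73.7 and 49.0 TPM in PF and 17.4, 27.5 and 7.62 in SF (a log2 fold change of -2.02 ± 0.48, DESeq2 adjusted p = 6.6e-04). Both genes kept their calls without each of the 6 libraries in turn, and *NEDD4L* lost it with PF replicate 4 kept (DESeq2 adjusted p = 0.11), which was at 12.8 TPM. The other 8 genes of this group did not pass.

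Among the genes of ligand uptake, *MIB2*, a ligase that marks ligands for endocytosis, was higher (log2 fold change 0.87 ± 0.31, DESeq2 adjusted p = 0.034) and *EPN1*, an epsin of the endocytic coat, lower (-1.10 ± 0.33, DESeq2 adjusted p = 0.0089), and 8 did not pass. *EPN1* was at 186, 176 and 103 TPM in PF and 81.5, 75.6 and 43.9 in SF, without overlap. *MFAP2*, a microfibril protein known to bind Jagged1, was at 154, 153 and 158 TPM in PF, 117 in PF replicate 4, and 494, 305 and 243 TPM in the SF libraries (log2 fold change 1.26 ± 0.36, DESeq2 adjusted p = 0.0062, or 0.0079 once PF replicate 4 was kept). PF replicates 1 to 3 were close together, PF replicate 4 was lower, and all 4 were below SF. None of the 9 genes of receptor glycosylation passed by DESeq2, 1 of them at an unadjusted edgeR p below 0.05. Of the remaining gamma-secretase genes *APH1B* was lower (log2 fold change -1.67 ± 0.56, DESeq2 adjusted p = 0.020).

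Of the 5 coactivators, 2 were higher in SF and 1 was lower (60% passing). Of the 13 corepressors tested, 2 were higher (15.4% passing), against 19.1% of all genes. The acetyltransferase genes *EP300* (log2 fold change 1.17 ± 0.40, DESeq2 adjusted p = 0.024) and *KAT2B* (2.49 ± 0.94, DESeq2 adjusted p = 0.044) were higher, and *KAT2A* was lower (-1.01 ± 0.37, DESeq2 adjusted p = 0.041). *KAT2B* was low, at 0.233, 0.0968 and 0.859 TPM in PF replicates 1 to 3 and 2.65, 2.15 and 1.92 in SF. PF replicate 4 was above all of these, at 5.39 TPM. With it kept the log2 fold change of *KAT2B* was 0.37 (DESeq2 adjusted p = 0.9). *SPEN*, a corepressor that binds RBPJ, was at 4.09, 3.74 and 8.18 TPM in PF, 12.2 in PF replicate 4, and 12.9, 17.4 and 22.5 TPM in the SF libraries (log2 fold change 1.78 ± 0.52, DESeq2 adjusted p = 0.0065). *TLE2*, a Groucho corepressor of the HES proteins, was higher too (1.5 ± 0.53, DESeq2 adjusted p = 0.031), and 11 of the 13 corepressors tested did not pass. Leaving out PF replicate 1 or 2 ended the calls of *EPN1*, *MFAP2*, *SPEN*, *EP300*, *KAT2A*, *KAT2B* and *APH1B* (DESeq2 adjusted p = 0.052 to 0.19). Leaving out SF replicate 2 or 3 also ended those of *EP300*, *KAT2A*, *KAT2B* and *APH1B* (DESeq2 adjusted p = 0.083 to 0.15), and leaving out SF replicate 1 that of *KAT2B* (0.15), whose log2 fold change was 3.98 without PF replicate 3. The call of *TLE2* was lost without PF replicate 1 or any SF library (DESeq2 adjusted p = 0.062 to 0.14), and dropping PF replicate 2, PF replicate 3, SF replicate 1 or SF replicate 2 ended that of *MIB2* (0.083 to 0.17).

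The genes listed here as other targets need not each be switched on by Notch. Of these, *HES6*, a HES family member that hinders HES1, was at 19.1, 24.8 and 4.52 TPM in PF replicates 1 to 3. It was at 0.0798 TPM in PF replicate 4, and at 1.89, 1.55 and 0.671 TPM in SF. The log2 fold change was -3.40 ± 0.74 (DESeq2 adjusted p = 1.8e-04, or 0.15 once PF replicate 4 was kept), and the call stood without each of the 6 libraries in turn. Like *HES5*, it was lowest in PF replicate 4 and SF replicate 3. Within each stage the same libraries were lowest for *NEDD4L*, *EPN1*, *KAT2A* and *APH1B*, though not for *LNX1* within SF. *MYC*, *CDKN1A* and *ID1*, which Notch shares with many pathways, missed the threshold (DESeq2 adjusted p = 0.64, 0.40 and 0.66). Without PF replicate 3, *CDKN1A* and *ID1* passed, at log2 fold changes of 3.40 and 3.04 (DESeq2 adjusted p = 0.0017 and 0.00042), and *MYC* was at 4.62 (0.051). As with *HEY1*, their levels went with the library number. *CDKN1A* was at 116, 119 and 145 TPM in the libraries numbered below 40 and at 812 to 1917 TPM in those above, and *MYC* at 0.111 to 22.1 TPM and 98.0 to 181 TPM.

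**Figure D4:**
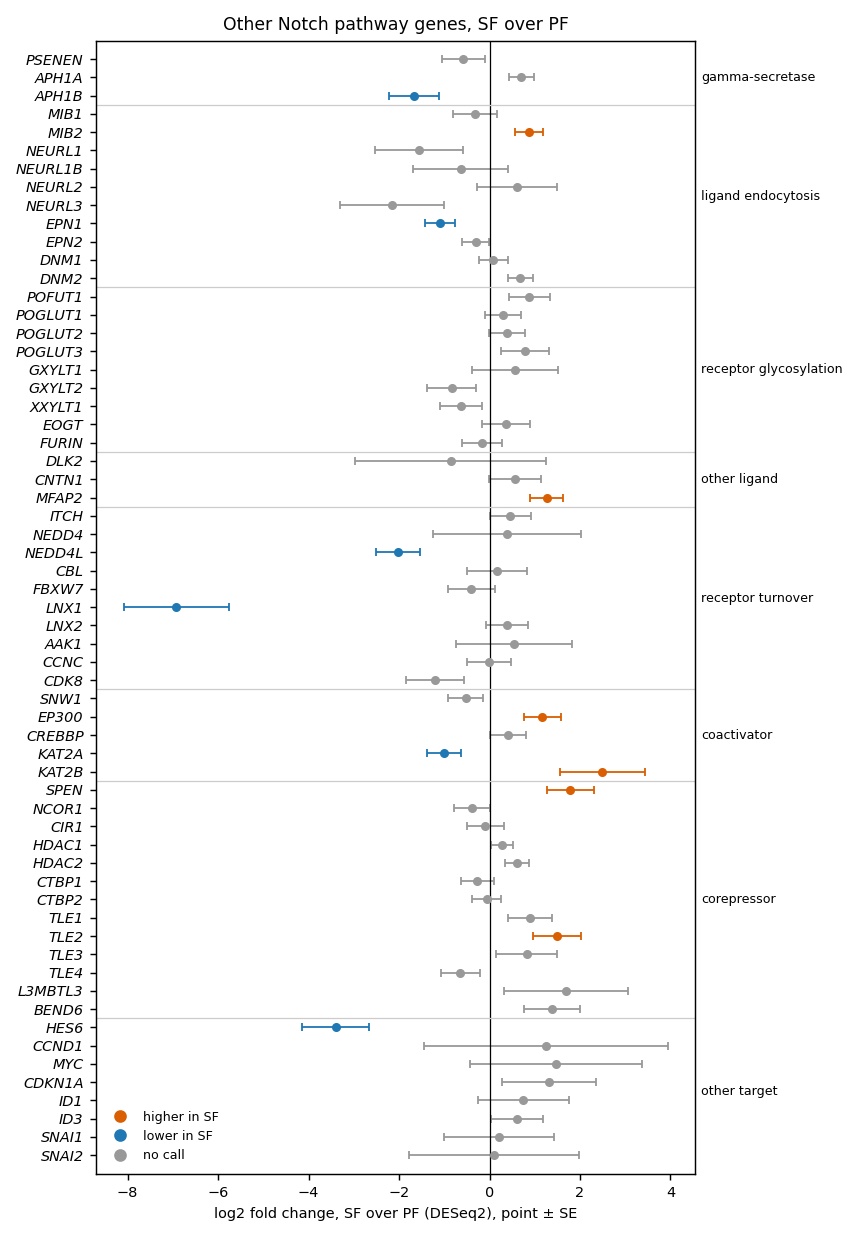
Log2 fold change of SF over PF with its SE, from DESeq2 on 3 libraries per group, for all but 1 of the 62 other Notch pathway genes with an adjusted p, by role. Orange marks the 6 genes higher in SF, blue the 6 lower, among them *LNX1* at -6.92, and grey the genes without a call.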

How the data were processed

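RNA sequencing libraries of bovine PF (4) and SF (3) were grouped and numbered by the sample titles. According to the study's methods, cDNA was amplified with a kit that does not mark strand, so reads of a gene and of an antisense partner cannot be told apart, and paired reads were quantified per transcript with Salmon against the ARS-UCD1.3 transcriptome. Trim Galore, for trimming, and Salmon are also listed in the processing notes of the submitters. Per the file headers, the authors deposited an estimated count, a TPM and an effective length per RefSeq transcript. The program divides reads among similar transcripts, which gives counts that are not whole. Without molecular identifiers, count limits cover counting error only.

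Of 76123 transcripts, 50205 (66.0%) were matched by accession to gene names in a RefSeq table of another assembly (ARS-UCD2.0), so no coordinates are given. Unmatched transcripts, holding 9.71% to 10.7% of the counts, were left out, so reads of a gene listed at 0 may lie on an unmatched transcript. Of the 71 other pathway genes, 69 were matched. Counts and TPM were summed per gene, and the counts rounded. Library totals were 18788105 to 23764615 estimated counts, and no libraries were duplicates (chi-square per degree of freedom 97.8 to 628 within a group).

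SF was compared with PF by the Wald test of DESeq2 1.42.0 (run in R 4.3.3), with size factors by the median of ratios, independent filtering and adjusted p below 0.05 over all genes, without PF replicate 4, as in the study. The sources used here do not tie animals to libraries, so the p-values reflect only how far these samples spread, in part perhaps for technical reasons. Alternatives were edgeR 4.0.16, limma 3.58.1 with a mean-variance trend on log2(TPM + 1) or log2(TPM + 0.1) over genes at 1 TPM or more in 3 libraries, TMM factors, 10 counts in 3 libraries, no independent filtering, a transcript length offset, PF replicate 4 kept, a block for the replicate number, the library number below or above 40 as a covariate, and each library left out. The fits were tested on simulated data with known changes. Sums and shares of TPM per role were not tested. Values in every library are given for members that passed, the most abundant of each role, and ligands and receptors with 1 TPM or more in any library. Other pathway genes are named if they passed, and *MYC*, *CDKN1A* and *ID1* were named after their values were seen. The members, lists and tests were chosen with earlier results of these data known. Promoter sequences were not analysed here, and 1 pathway gene is not reported here. Tables and plots used Python 3.11.15, pandas 2.3.3, numpy 2.4.6 and matplotlib 3.10.9.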

Additional observations from a re-analysis of the deposited data

Results flagged for a closer look

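The members, the other pathway genes that passed and the summed roles, 48 items in all, were searched for a library far from the rest of the 4 PF libraries. The rule marks about 1 in 20 items of normal spread, which TPM need not have, and 6 were found. The pathway genes had passed with PF replicate 4 left out, which favours close values in PF replicates 1 to 3, so that rate does not hold for them. In PF replicate 4, *LFNG* was far above the other PF libraries, at 36.7 TPM, as were *KAT2B*, at 5.39 TPM, and the summed receptors, at 11 TPM. *MFAP2* was far below them in the same library, at 117 TPM. *NOTCH4* stood apart in PF replicate 1, at 0.332 TPM against 0 in the other PF libraries, a pattern that any value above 0 would have marked. *MAML2* stood apart in PF replicate 3, at 2.24 TPM.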

How the results depend on the processing

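DESeq2 called 2876 genes in all, of which 42.6% were higher in SF. With PF replicate 4 kept the count was 858, with edgeR 0, with limma on log2(TPM + 1) 792 (29.4% higher), on log2(TPM + 0.1) 2 and without a filter 0, and with a library left out 1887 to 3947. The 9 members passing became 3, 0, 3 (*JAG2*, *HES5* and *DTX3*), 0 and 0 under the same settings and 5 to 15 with a library left out, and the 12 other pathway genes became 2, 0, 3, 0 and 0, and 5 to 19. TMM factors, 10 counts in 3 libraries, no independent filtering and the length offset each left the same 9 members, and 13, 10, 10 and 13 of the other pathway genes. Calls lost there were *KAT2A* with TMM (DESeq2 adjusted p = 0.064), *APH1B* (0.072) and *KAT2B* (0.058) with 10 counts, and *KAT2A* (0.051) and *KAT2B* (0.055) without independent filtering. Whether equal replicate numbers share a source is not stated. The correlations of same-numbered deviations from the group means were 0.119, 2.74e-05 and 0.205, and PF replicate 2 correlated best with SF replicate 1 (0.121). With 3 libraries a group such deviations depend on each other, so they cannot settle pairing. With the replicate number as a block 12 members, 18 other pathway genes and 4077 of all genes passed. A covariate for the library number gave 11, 16 and 2940. The 11 include *MFNG* and the 16 include *EGFL7*, each with counts in SF replicate 1 alone. The summed TPM of SF minus PF was -43.7 for ligands (-28.3 within library numbers above 40), 5.16 for receptors (2.68 below 40), 73.2 for modifiers (fringe, protease, nuclear complex, deltex and numb genes; 180 above 40) and -40.7 for targets (-125 to 38.3 with a library left out). Log2 fold changes that turned sign belonged to members without a call, at *NOTCH1* -1.08 and *HEY2* 0.09 with PF replicate 4 kept, *MAML2* 4.22 and *HES4* 7.06 with the replicate block, *MAML2* 1.26, *HES1* -0.40 and *HES4* 2.90 with the library number, *HES4* 0.07 and *HEY2* 0.05 with edgeR, *HEY2* 0.02 with TMM factors, and *HES1* -0.01 in all limma fits and *HES4* 0.60, 2.22 and 0.60. With a library left out they ranged from -2.98 to 1.00 for *DLL1*, -0.49 to 1.89 for *NOTCH1*, -1.73 to 0.75 for *NOTCH3*, -0.45 to 0.40 for *ADAM17*, -1.95 to 5.97 for *MAML2*, -0.33 to 0.62 for *HES1*, -0.60 to 10.17 for *HES4*, -0.85 to 0.76 for *HEY1* and -0.23 to 0.07 for *HEY2*. The causes were not tested. With 3 libraries a group, members near or under 1 TPM have wide errors.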
